A study of Capsicum annuum with 12 samples.

Results

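Chromatin immunoprecipitation sequencing libraries of H3K27me3 and of H3K9me2, both marks of silent chromatin, were set against each other from young leaf tissue of pepper (Capsicum annuum) cultivar 59. They are 4 of the 12 samples of a series on the folding of the pepper genome, with 2 libraries of each mark. The other samples are 2 libraries of H3K4me3, used here as a landmark, and 6 inputs. All samples share the cultivar and the tissue, and the labels name no treatment, genotype or plant age. Whether the 2 libraries of a mark came from separate plants is not said, so a p-value here reflects the variation among 4 libraries, and that variation may be technical. The prefix YZ of the titles is not explained there.

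Each library has its own list of peaks, stretches where sequenced fragments exceed a local background. An interval of at least 100 bp that is covered by peaks of both libraries of a mark is called a region. On the 12 chromosomes the lists gave 29068 H3K27me3 regions of 18.5 Mb in all, and 4026 H3K9me2 regions of 1.27 Mb. The median H3K27me3 region was 447 bp long (quartiles 283 and 771 bp), against 271 bp for the median H3K9me2 region (222 and 360 bp). The longest reached 10507 bp for H3K27me3 and 2504 bp for H3K9me2. Positions are those of the lists, whose build is known only by its prefix Ca_59Chr. Chromosome length was taken as the end of the last peak on it in any of the 6 lists, and no gene was assigned to a region.

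H3K27me3, trimethylation of lysine 27 of histone H3, is set by the Polycomb repressive complex and is known in plants from genes that are kept off in a given tissue but can be switched on in another. H3K9me2, dimethylation of lysine 9, is set by methyltransferases of the SUVH family. In Arabidopsis it works in a loop with DNA methylation by a chromomethylase, and it is known from transposons and other repeats. H3K4me3, trimethylation of lysine 4, is known from the starts of transcribed genes.

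The H3K27me3 libraries had more, wider and stronger peaks on the chromosomes than the H3K9me2 libraries. They held 37284 and 33098 peaks in replicates 1 and 2, against 18430 and 14342 in the H3K9me2 libraries. Median peak width was 462 and 465 bp for H3K27me3 and 295 and 298 bp for H3K9me2. Their peaks covered 25.1 and 22.0 Mb, against 6.42 and 5.03 Mb for H3K9me2. Median fold enrichment, the authors' ratio of a peak over its local background, was 8.23 and 8.41 for H3K27me3 and 4.31 and 4.38 for H3K9me2. At the summit, peaks held a median of 21 and 20 fragments in H3K27me3 and of 15 and 15 in H3K9me2. No pair of libraries overlapped between the marks in any of these measures. An exact two-sided permutation test of 2 against 2 libraries cannot give less than p = 0.33, which it gave for covered length and fold.

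A part of the H3K9me2 regions lay where the caller expected many fragments from the local background. High background is used below for a level above 5 times the lowest of the library. It held 0.994% of the H3K27me3 regions and 33.2% of the H3K9me2 regions, or 1.07% and 39.5% of their bases. In single libraries, 1.15% and 0.725% of H3K27me3 peaks and 9.08% and 10.4% of H3K9me2 peaks were of this kind. Results that shift without such peaks are given both ways.

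H3K27me3 was concentrated toward the chromosome ends, while H3K9me2 was spread almost evenly outside the outermost parts. The distal part, the outer 15% of the span at each end and thus 30% of it, held 66.6% and 66.5% of the covered bases of the H3K27me3 libraries. It held 36.8% and 39.4% of those of the H3K9me2 libraries. The difference was 28.5 points (exact two-sided permutation p = 0.33, the smallest possible), many times the SD of 0.0592 points between the H3K27me3 libraries and of 1.82 points between the H3K9me2 libraries. The middle 40% of the span held 10.7% and 10.8% of the H3K27me3 bases against 36.8% and 35.5% of the H3K9me2 bases. The median peak lay 8.78% and 8.86% of the span away from the nearer end in the H3K27me3 libraries, and 24.1% and 23.0% in the H3K9me2 libraries.

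**Figure D1:**
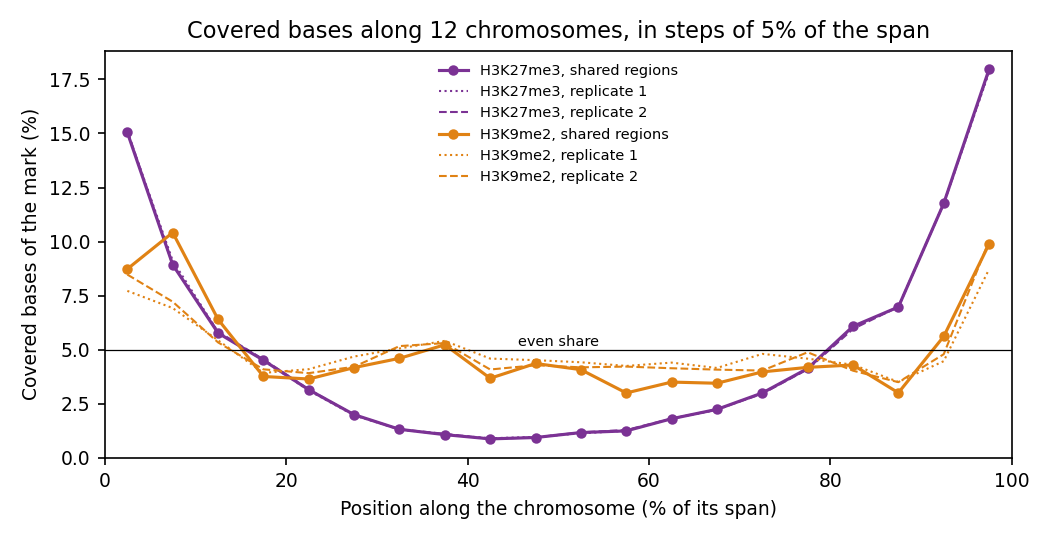
Share of the covered bases of each mark (y, %) in 20 steps along the span of the chromosomes (x, %), for shared regions (points) and for single libraries (thin lines). H3K27me3 runs from 15.05% in the first step to under 1% near the centre and 17.97% in the last, whereas H3K9me2 stays between 3.00% and 5.23% from 15% to 90% of the span.

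The 20 steps of the plot along the span show how the marks part. In shared regions the first and the last step held 15.05% and 17.97% of the H3K27me3 bases, against 8.73% and 9.89% of the H3K9me2 bases. The highest step of H3K9me2 was the second, from 5% to 10% of the span, with 10.4%, against 8.93% of H3K27me3. In the single H3K9me2 libraries that step held 6.93% and 7.22%, below the first and the last step. The lowest step of H3K27me3, between 40% and 45% of the span, held 0.876% of it, and the same step held 3.68% of H3K9me2. The lowest step of H3K9me2, between 55% and 60%, held 3.00%, against 1.25% of H3K27me3. In the outermost 1% at each end the marks came close, with 6.40% of the H3K27me3 bases and 6.03% of the H3K9me2 bases. In single libraries this zone held 6.46% and 6.56% of H3K27me3 and 4.81% and 5.72% of H3K9me2. Within the outer 5% at each end the shares were 33.0% for H3K27me3 and 18.6% for H3K9me2.

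H3K27me3 was the more distal mark on 11 of 12 chromosomes in shared bases, and on 12 of 12 both its libraries exceeded both H3K9me2 libraries. The mean over chromosomes was 66.7% ± 8.78 for H3K27me3 and 46.1% ± 13.5 for H3K9me2 (SD over 12 chromosomes, which are parts of 1 genome and not replicates). The mean difference was 20.5 ± 15.1 points, smaller than in the libraries. Of the H3K9me2 bases found in both replicates 44.1% were distal, more than in either list, and of the H3K27me3 bases 66.5%. Chromosome 3 had the largest difference, where the distal part held 77.3% of H3K27me3 and 27.4% of H3K9me2. Chromosome 11 followed with 72.7% and 38.6%, and chromosome 9 with 71.6% and 37.7%, each with H3K27me3 given first. An even spread would give 30%, so only H3K27me3 stood far above it on these 3 chromosomes.

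The smallest differences were on chromosomes 5, 10 and 8. On chromosome 5 the distal part held 67.2% of the shared H3K27me3 bases and 67.7% of the H3K9me2 bases. Its single libraries stood apart again, at 67.1% and 67.4% for H3K27me3 against 50.8% and 53.1% for H3K9me2. On chromosome 10 the shared bases gave 61.1% for H3K27me3 and 58.4% for H3K9me2, and on chromosome 8 they gave 59.2% and 53.7%. The middle 40% of the span had a lower share of H3K27me3 than of H3K9me2 on 12 of 12 chromosomes, by −20.3 ± 9.99 points on average (H3K27me3 minus H3K9me2). The distal order on single chromosomes depended on the peaks kept. At a −log10 q of at least 10 the difference of shared bases was −27.9 points on chromosomes 8 and 12, −19.5 points on chromosome 7 and 15.8 points on chromosome 5, with 245 H3K9me2 regions left in the genome.

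**Figure D2:**
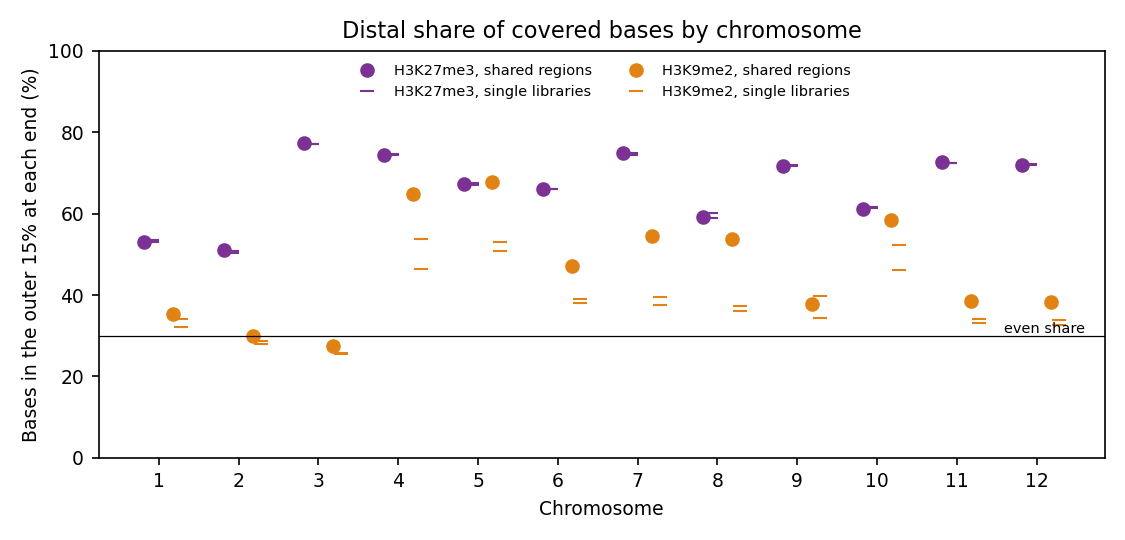
Share of covered bases in the outer 15% at each end (y, %) on each of the 12 chromosomes (x), with H3K27me3 on the left and H3K9me2 on the right of each pair. Points are shared regions and dashes single libraries: every H3K27me3 dash stands above both H3K9me2 dashes of its chromosome, and the points meet on chromosome 5 (67.2% and 67.7%).

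The marks also differed in which side of a chromosome they filled, a comparison chosen after the values were seen. On chromosome 2 the first 50% of the span held 9.13% of the H3K27me3 bases and 67.1% of the H3K9me2 bases. On chromosome 8 it held 9.74% of H3K27me3 and 71.8% of H3K9me2. The single libraries of chromosome 2 gave 10.6% and 9.47% for H3K27me3 against 62.9% and 62.1% for H3K9me2. Those of chromosome 8 gave 11.4% and 10.6% for H3K27me3 against 63.7% and 66.3% for H3K9me2. H3K4me3 lay on the same side as H3K27me3 there, with 13.6% and 13.1% of its shared bases in the first 50% of chromosomes 2 and 8.

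Chromosomes 6 and 4 had the reverse arrangement. On chromosome 6 the first 50% of the span held 73.9% of the H3K27me3 bases and 31.7% of the H3K9me2 bases, and on chromosome 4 it held 54.8% and 30.7%. The marks stood on opposite sides of 50% in shared bases and in both replicates on 10 of 12 chromosomes, though several H3K27me3 values were near 50%. On chromosome 1 they did not part, with 47.3% of H3K27me3 and 46.9% of H3K9me2. Without peaks of high background the differences on chromosomes 2, 8 and 6 were −53.3, −58.8 and 38.3 points, close to −58.0, −62.0 and 42.2 points with them. On chromosomes 3 and 7 the differences were smaller without such peaks, at −2.76 and −15.1 points, against −18.6 and −28.3 points with them. Both marks then lay below 50% on chromosome 3, with 45.7% of H3K27me3 and 48.5% of H3K9me2.

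**Figure D3:**
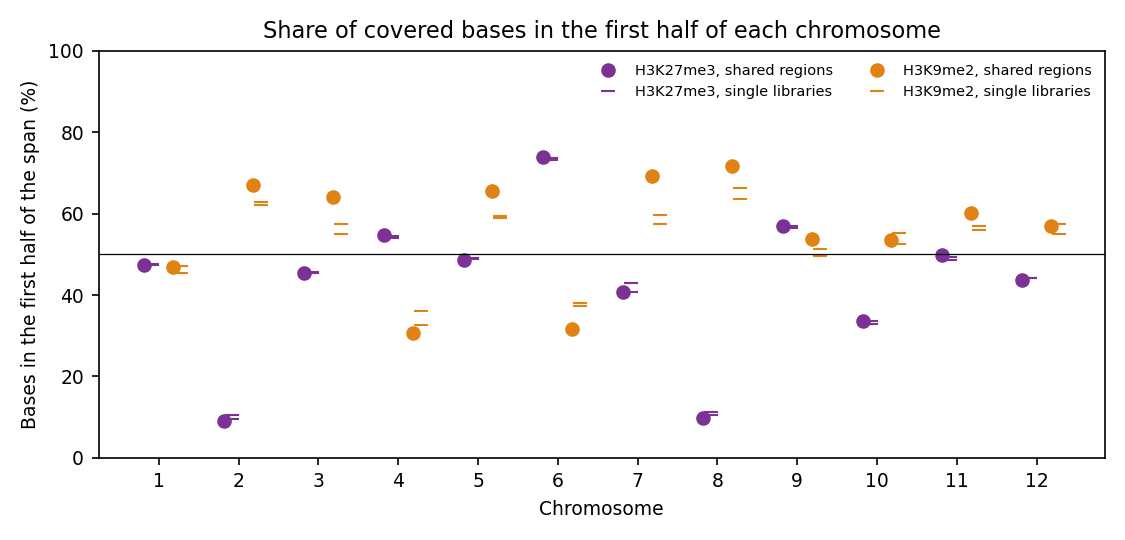
Share of covered bases in the first 50% of the span (y, %) on each chromosome (x), with H3K27me3 on the left and H3K9me2 on the right of each pair; points are shared regions and dashes single libraries. Chromosomes 2 and 8 have H3K27me3 at 9.13% and 9.74% against H3K9me2 at 67.1% and 71.8%, and chromosome 6 has the reverse order.

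Few regions of the marks met, but by bases their overlap was not below that of regular positions. Of the H3K27me3 regions 31 met an H3K9me2 region, 0.107% of them, and 31 H3K9me2 regions, 0.770% of theirs, met an H3K27me3 region. As a background, positions taken every 100 kb along the chromosomes were measured in the same way. Of these 30657 positions, 0.0294% lay on an H3K9me2 region and 0.594% on an H3K27me3 region. A position is a single base and a region is longer, so shares of regions are not like for like with these. Shares of bases are. H3K9me2 regions held 0.0510% of the H3K27me3 bases, and H3K27me3 regions held 0.740% of the H3K9me2 bases. Neither was below the share of positions, so the low counts of meeting do not set the marks apart.

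Within 10 kb, 225 H3K27me3 regions (0.774%) had an H3K9me2 region, against 1.84% of the regular positions. In the other direction, 150 H3K9me2 regions (3.73%) had an H3K27me3 region within 10 kb, against 8.44% of the regular positions. The share of H3K9me2 regions was below that of the positions on 11 of 12 chromosomes, and chromosome 7 was the exception with 8.36% against 7.47%. In the distal part the shares were 0.906% of H3K27me3 regions against 2.13% of positions, and 5.75% of H3K9me2 regions against 17.1% of positions. Between these parts they were 0.443% of H3K27me3 regions against 1.72% of positions, and 2.40% of H3K9me2 regions against 7.38% of positions. In the middle 40% they were 0.645% of H3K27me3 regions against 1.71% of positions, and 2.12% of H3K9me2 regions against 2.76% of positions.

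The low share of H3K9me2 regions near H3K27me3 changed with the peaks taken. With only replicate 2 of H3K27me3, 9.39% of H3K9me2 regions had a peak within 10 kb against 9.80% of positions, and with only replicate 1 the order turned, at 11.3% against 10.5%. Without peaks of high background the gap was there in both cases, with 5.83% against 9.73% for replicate 2 and 6.73% against 10.5% for replicate 1, a limit combined after seeing the data. At a −log10 q of at least 10, which left 245 H3K9me2 regions, the shares were 6.53% and 6.48%.

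The typical distance between the marks was far longer than a region. The median H3K27me3 region lay 575 kb from the nearest H3K9me2 region, against 471 kb for the regular positions, and farther than the positions on 11 of 12 chromosomes. The median H3K9me2 region lay 158 kb from the nearest H3K27me3 region, and the median position also 158 kb. That equality covered unlike parts of the chromosomes. In the distal part the H3K9me2 regions lay farther from H3K27me3 than the positions did, with medians of 89.3 kb against 53.2 kb. In the middle 40% the median of H3K9me2 regions was 351 kb against 386 kb for the positions. No H3K9me2 region lay within 1 Mb of 31.3% of the H3K27me3 regions (24.6% of positions), and no H3K27me3 region within 1 Mb of 8.67% of the H3K9me2 regions (10.7% of positions).

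Pairs of single libraries, whose lists hold more peaks than the regions of both, gave shorter distances. Only 0.528% and 1.48% of H3K27me3 peaks had no H3K9me2 peak within 1 Mb in replicates 1 and 2 (0.104% and 0.479% of positions). Of the H3K9me2 peaks 5.47% and 7.19% had no H3K27me3 peak within 1 Mb (5.67% and 7.65% of positions). From H3K27me3 to H3K9me2 peaks the median was 111 and 147 kb in replicates 1 and 2, against 81.5 and 107 kb for the positions. From H3K9me2 to H3K27me3 peaks it was 126 and 135 kb, against 117 and 130 kb for the positions. The share of H3K9me2 peaks within 10 kb of an H3K27me3 peak of the same replicate number was 7.24% and 6.52%, below the 10.5% and 9.80% of the positions.

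Over whole chromosomes, coverage by the other mark was low next to a region and came near that around regular positions beyond 50 kb. Within 1 kb of H3K27me3 regions H3K9me2 covered 0.0155% of the bases, which is 0.511 times the coverage around regular positions. From 1 to 5 kb the ratio was 0.260, from 10 to 25 kb 0.607, and from 50 to 100 kb 0.887. Around H3K9me2 regions, H3K27me3 covered 0.0826% of the bases within 1 kb, a ratio of 0.141. The ratio was 0.264 from 1 to 5 kb, 0.627 from 10 to 25 kb and 0.916 from 50 to 100 kb. Between 250 and 500 kb the ratios were 1.03 around H3K27me3 and 1.01 around H3K9me2.

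Within parts of the chromosomes the ratios differed, with positions taken from the same part. In the distal part they were 0.645 around H3K27me3 and 0.699 around H3K9me2 from 50 to 100 kb, and still 0.754 and 0.768 from 250 to 500 kb. In the middle 40%, H3K9me2 coverage within 1 kb of H3K27me3 was above that around positions with all peaks. The ratio was 2.02 in shared regions and 1.22 and 1.72 in replicates 1 and 2. Without peaks of high background it was 0.0380 in shared regions, far below that around positions. H3K27me3 coverage within 1 kb of H3K9me2 was low in the middle 40%, at 0.0818 in shared regions and 0.248 and 0.365 in the replicates.

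The dip over whole chromosomes was shallower in single libraries, most of all around H3K27me3 peaks of replicate 1. From 1 to 5 kb around H3K9me2 peaks, the ratio of H3K27me3 coverage was 0.427 in replicate 1 and 0.324 in replicate 2. From 1 to 5 kb around H3K27me3 peaks, the ratio of H3K9me2 coverage was 0.717 in replicate 1 and 0.394 in replicate 2. Within 1 kb of H3K27me3 peaks it was 0.935 in replicate 1, close to that around positions, and 0.591 in replicate 2. Without peaks of high background the ratios in shared regions were lower, at 0.147 around H3K27me3 and 0.210 around H3K9me2 from 1 to 5 kb.

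**Figure D4:**
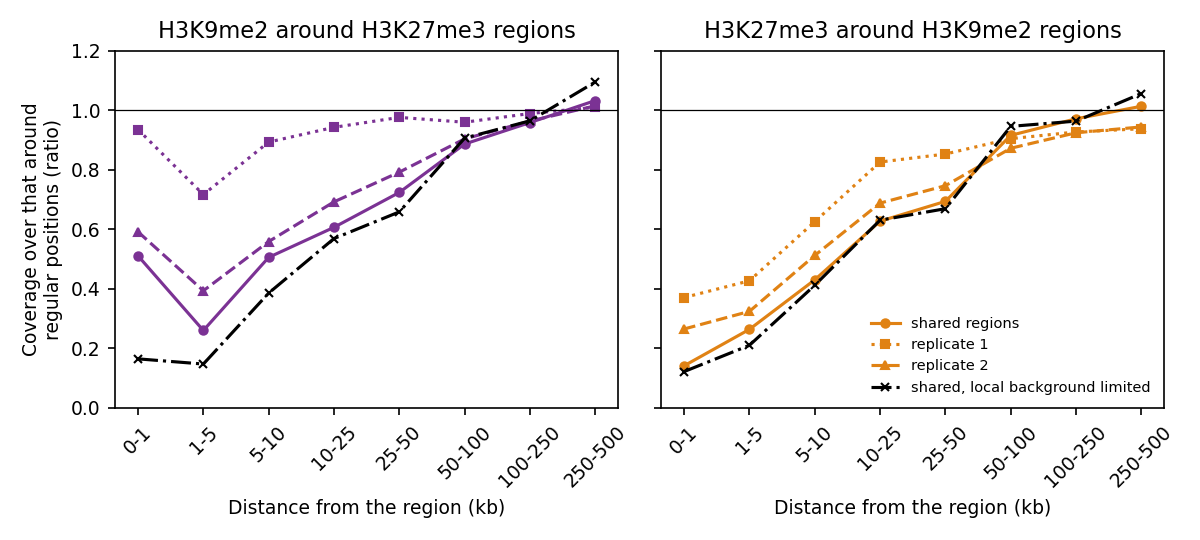
Coverage by the other mark over its coverage around regular positions (y, ratio) against distance from a region (x, kb), around H3K27me3 regions (left) and around H3K9me2 regions (right), over whole chromosomes. In shared regions the ratio is 0.260 and 0.264 from 1 to 5 kb and reaches 0.887 and 0.916 from 50 to 100 kb; replicate 1 stands highest in the left panel up to 100 kb.

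The marks coincided in 31 intervals of 9428 bp in all, 0.0510% of the H3K27me3 bases and 0.740% of the H3K9me2 bases. They were between 159 and 559 bp long with a median of 275 bp, and lay on 10 chromosomes, with 7 on chromosome 1 and 5 each on chromosomes 2 and 7. Of the 31, 18 lay in the distal part, 9 in the middle 40%, and 2 within 10 kb of an H3K4me3 region. Of all regions, 66.8% of H3K27me3 and 42.3% of H3K9me2 were distal, and 10.7% and 32.8% lay in the middle 40%. Within 10 kb of H3K4me3 lay 39.8% of the H3K27me3 regions and 3.50% of the H3K9me2 regions. High background in at least 1 library marked 23 of the 31 intervals. In these 23 the median fold was 3.20 and 3.08 for H3K27me3 and 5.41 and 4.73 for H3K9me2. In the other 8 it was 5.46 and 7.25 for H3K27me3 and 4.53 and 4.13 for H3K9me2.

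Among the 5 longest intervals of both marks, the first lies on chromosome 9 from 128262 to 128820 with summits of 56 and 48 fragments in H3K27me3 and of 29 and 28 in H3K9me2. An interval of chromosome 12 from 4755634 to 4756153 followed with 38 and 37 fragments in H3K27me3 and 19 and 19 in H3K9me2. Both stood on an ordinary background of 1.81 to 4.81 fragments in the 4 libraries. On chromosome 7 from 22729336 to 22729787 the background was 150 and 114 fragments for H3K27me3 and 163 and 196 for H3K9me2, and the fold lay between 1.66 and 2.56 over the 4 libraries. Nearer the end of the same chromosome, from 27948 to 28391, fold was 3.88 and 3.41 for H3K27me3 and 3.32 and 4.48 for H3K9me2. The fifth, near the centre of chromosome 3 from 136273626 to 136274058, had 4.40 and 2.58 for H3K27me3 and 6.69 and 4.73 for H3K9me2, with high background.

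H3K27me3 regions that met H3K9me2 had a lower fold than those farther away, though their summits held more fragments. Median fragments were 38 and 36 where they met. Farther away they were between 27 and 29.5 in replicate 1 and between 23 and 26 in replicate 2. Median H3K27me3 fold was 4.09 and 3.54 in the 31 regions that met H3K9me2 and 8.57 and 8.60 in the 194 others within 10 kb. It was 10.4 and 9.49 at 10 to 100 kb, 10.4 and 9.63 at 100 kb to 1 Mb, and 10.5 and 9.63 beyond 1 Mb. High background moved with it, in 71.0% of the regions that met H3K9me2 and then, with growing distance, in 16.5%, 1.57%, 0.719% and 0.736%. Its part in the fold was not tested. H3K9me2 fold hardly varied with distance from H3K27me3, with medians between 3.93 and 4.84 in replicate 1 and between 3.83 and 4.34 in replicate 2. Its fragments did vary. The 31 H3K9me2 regions that met H3K27me3 had medians of 85 and 91 fragments. Farther away the medians were between 20 and 23 in replicate 1 and between 19 and 22 in replicate 2. High background marked 74.2% of the 31, against 28.4% to 47.1% in the classes farther away.

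Of the 119 H3K9me2 regions within 10 kb of H3K27me3 that did not meet it, 5 had the highest mean fold. The first by mean fold, on chromosome 1 from 270258511 to 270258622, lay 392 bp from H3K27me3. Its H3K9me2 fold was 10.7 and 3.26 on high background. The fold of 10.7 is that of a replicate 1 peak which also reached the interval of both marks from 270259015 to 270259289. In replicate 1 this region is thus part of a peak that met H3K27me3. Without peaks of high background the nearest H3K27me3 was 301 kb from this region. On chromosome 4 from 18585402 to 18585605 the H3K9me2 fold was 6.31 and 6.19, and an H3K27me3 region with a fold of 8.58 and 4.29 lay 6.20 kb away. The replicates differed by little there (SD 0.0841). On chromosome 9 from 209246910 to 209247134 an H3K9me2 region of fold 6.62 and 4.38 stood 3.50 kb from a 3391 bp H3K27me3 region of fold 29.2 and 31.3. A region of chromosome 1 from 19543820 to 19544232 lay 9.64 kb from H3K27me3. The last of the 5, on chromosome 12 from 8061249 to 8061476, lay 4.39 kb away.

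The strongest regions far from the other mark were of unlike strength. Among 9105 H3K27me3 regions with no H3K9me2 within 1 Mb, the highest mean fold was 144 ± 67.3 (SD, n = 2) on chromosome 7 from 263519488 to 263521531. A region of chromosome 3 from 21062999 to 21063665 had 139 ± 73.1, and one of chromosome 10 from 229414136 to 229415546 had 138 ± 40.9. Another of chromosome 3, from 286718868 to 286720359, had 111 ± 67.5. The fifth, from 159738178 to 159739069 of chromosome 8, had 107 ± 10.9. The 5 regions met an H3K4me3 region and lay within 8.23% of the span from an end. Of the 9105 regions 10.3% met H3K4me3, and their median distance from an end was 7.82% of the span. The distance of the 5 from H3K9me2 rested on regions found in both H3K9me2 libraries. Against replicate 1 alone, the chromosome 7 region lay 495 kb from a peak and that of chromosome 8 lay 133 kb from one. Against replicate 2 alone, the chromosome 10 region lay 233 kb and the chromosome 3 region at 21062999 lay 483 kb from a peak. The shared-region distances of these 4 were 1340, 2469, 2591 and 4243 kb, in the same order.

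Among 349 H3K9me2 regions with no H3K27me3 within 1 Mb, the highest mean fold was 12.2 ± 5.97 on chromosome 5 from 156704398 to 156705041. It was 10.6 ± 3.93 on the same chromosome from 87885830 to 87886356. A region of chromosome 8 from 18579989 to 18580510 had 8.93 ± 4.12, and one of chromosome 10 from 81313402 to 81313640 had 7.58 ± 1.11. The last, from 166994675 to 166995009 of chromosome 12, had 7.04 ± 3.86. Those of chromosome 8 and of chromosome 5 from 156704398 stood on high background. None of the 5 was within 10 kb of H3K4me3, where only 1.43% of the 349 lay. The nearest was 26.8 kb away, on chromosome 8. For 4 of the 5 named regions the distance of over 1 Mb was lost against a single H3K27me3 library. The regions of chromosome 5 from 156704398 and of chromosome 8 met a peak of replicate 2 (0 kb). Against replicate 1, the other chromosome 5 region lay 763 kb and the chromosome 10 region 237 kb from a peak.

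H3K4me3, which had no part in defining the regions, also set the marks apart. A shared H3K4me3 region lay within 10 kb of 39.5% and 39.7% of the H3K27me3 peaks and of 4.92% and 5.12% of the H3K9me2 peaks. The difference was 34.6 points (exact two-sided permutation p = 0.33, the smallest possible), against an SD of 0.170 and 0.148 points between replicates. Median distance to H3K4me3 was 17.2 and 17.01 kb in the H3K27me3 libraries and 86.6 and 86.8 kb in the H3K9me2 libraries. Of the peaks, 9.69% and 10.2% of H3K27me3 and 0.0217% and 0.0139% of H3K9me2 met H3K4me3. Among regular positions 15.03% lay within 10 kb of H3K4me3, so the shared regions stood on either side of that level, at 39.8% for H3K27me3 and 3.50% for H3K9me2. In the distal part the values were 42.7% of H3K27me3 regions and 5.11% of H3K9me2 regions, against 28.1% of positions. In the middle 40% they were 32.2% and 1.89%, against 7.01% of positions.

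Regions of each mark also lay near others of their own kind. Another H3K27me3 region lay within 10 kb of 84.2% of the H3K27me3 regions, and another H3K9me2 region within 10 kb of 50.1% of the H3K9me2 regions. Of the regular positions 8.44% lay that close to H3K27me3 and 1.84% to H3K9me2, so both shares were far above the background. Median distance to the next region of the same mark was 0.755 kb for H3K27me3 and 9.84 kb for H3K9me2. A stretch called in several pieces counts as several regions here. With peaks within 1 kb joined, 18356 of 29068 regions remained for H3K27me3 and 3656 of 4026 for H3K9me2. How far such pieces make up the shares within 10 kb was not tested. Joined within 10 kb, the H3K27me3 regions formed 10885 groups, of which 308 held at least 10 regions, and the H3K9me2 regions formed 2655 groups, of which 11 did. The closeness of H3K9me2 regions went with local background. Of those on high background 82.1% had another within 10 kb, against 34.2% of the others.

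Most bins of 1 Mb were led by one mark or the other under a rule on scaled amounts. A mark's bases in a bin were divided by their mean over the 3074 bins, 6.01 kb for H3K27me3 and 414 bp for H3K9me2. A bin was called led by a mark whose scaled amount was at least 2 times that of the other. H3K27me3 led 1356 bins (44.1%) and H3K9me2 led 1009 bins (32.8%). A further 385 bins (12.5%) were mixed, and 324 (10.5%) held neither mark. Of the bins led by H3K27me3, 1138 held no H3K9me2 region. Of those led by H3K9me2, 392 held no H3K27me3 region. Among all 3074 bins, 1462 held no H3K9me2 region and 716 held no H3K27me3 region. Both marks were present in 1220 bins (39.7%), so a bin led by a mark is not always free of the other. A bin with regions of a single mark is led by that mark under this rule, however few its bases. In raw bases, H3K27me3 exceeded H3K9me2 in 2218 bins and H3K9me2 exceeded H3K27me3 in 532.

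Bins led by H3K27me3 lay toward the ends and those led by H3K9me2 toward the middle. The distal part held 43.3% of the bins led by H3K27me3 and 17.9% of those led by H3K9me2, against 30.2% of all bins. The middle 40% held 26.3% of the bins led by H3K27me3 and 52.0% of those led by H3K9me2, against 39.9% of all bins. Bins with neither mark were the most central, with 73.5% of them in the middle 40%. H3K27me3 led 64.9% of the bins in the first 5% of the span and 24.2% between 50% and 55%. H3K9me2 led 20.1% and 45.1% in the same steps.

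**Figure D5:**
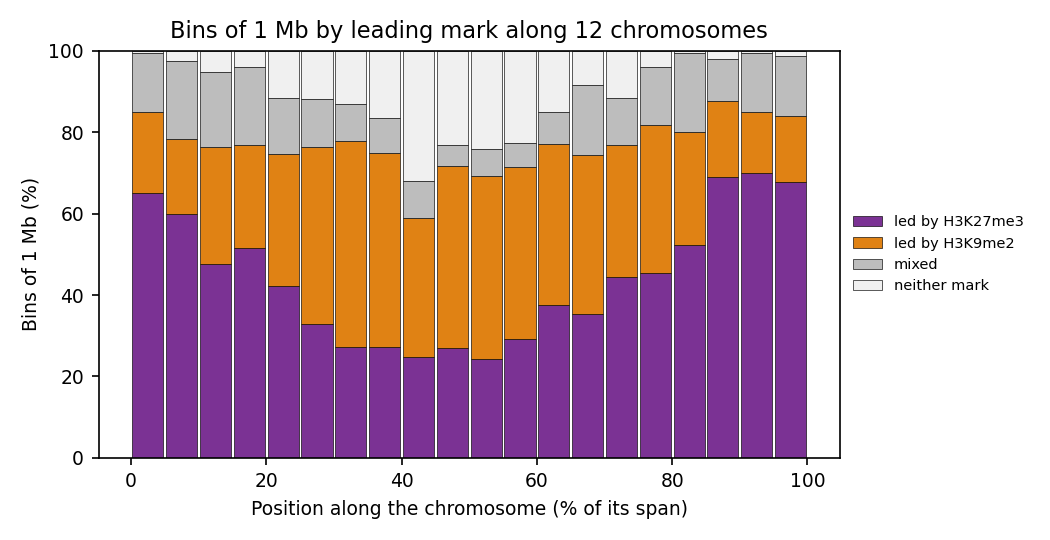
Bins of 1 Mb (y, % of the bins in each step) led by H3K27me3, led by H3K9me2, mixed or with neither mark, in 20 steps along the span of the chromosomes (x, %). Bins led by H3K27me3 fall from 64.9% at the first end to 24.2% past the centre and reach 67.7% at the last, and bins with neither mark reach 32.0% between 40% and 45%.

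The calls from replicate 1 of both marks and from replicate 2 of both marks share no library. They gave the same class in 2484 of the 3074 bins (80.8%). H3K27me3 led 782 bins in replicate 1 and 821 in replicate 2, and 643 bins were common, 82.2% and 78.3% of these. H3K9me2 led 1562 and 1505 bins, of which 1373 were common, 87.9% and 91.2% of these. The calls were opposite in 48 bins. Only 4 and 22 bins held neither mark in the single lists. In these lists H3K27me3 led fewer bins than H3K9me2, the reverse of the shared regions. The order also turned in bins of 5 Mb of the shared regions, where H3K27me3 led 27.6% and H3K9me2 led 41.4%.

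Bins rich in H3K4me3 were led by H3K27me3. In the 769 bins with the least H3K4me3, H3K27me3 led 26.4% and H3K9me2 led 46.6%. In the 769 bins with the most, H3K27me3 led 69.4% and H3K9me2 led 13.3%. The mean amount of H3K27me3 per bin was 1.83, 2.31, 5.17 and 14.7 kb over 4 classes of rising H3K4me3, of 768 or 769 bins each. The mean amount of H3K9me2 was 0.459, 0.412, 0.360 and 0.426 kb over the same classes and kept no order. The classes are described with no test, as bins of 1 genome are not replicates.

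By chromosome, H3K9me2 led the largest share of bins on chromosome 2 (44.7%, 80 of 179) and the smallest on chromosome 5 (27.1%, 69 of 255). H3K27me3 led 40.8% and 44.3% of the bins on these chromosomes. The longest run of neighbouring bins led by H3K27me3 held 25 bins on chromosome 8, from 138000001 to 163000000, with 507 kb of H3K27me3 and 2.10 kb of H3K9me2. Replicates 1 and 2 gave the same leading mark in 23 and 25 of these bins. The longest run led by H3K9me2 held 16 bins on chromosome 2, from 14000001 to 30000000, with 16.4 kb of H3K27me3 in 6 of its bins and 15.2 kb of H3K9me2 in all 16. The replicates gave H3K9me2 in 14 and 14 of these. Most runs were short, with a median of 1 bin for either mark.

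The 5 bins with the largest lead of H3K27me3 lay within 2% of the span from an end. They were chromosome 3 from 286000001 to 287000000 with 125 kb of H3K27me3 and no H3K9me2, and chromosome 2 from 176000001 to 177000000 with 118 kb and none. Chromosome 4 from 4000001 to 5000000 had 89.9 kb of H3K27me3 and 0.222 kb of H3K9me2. On chromosome 3, the bin from 285000001 to 286000000 had 90.1 and 0.287 kb, and on chromosome 9 the one from 5000001 to 6000000 had 83.5 and 0.123 kb. Both replicates called H3K27me3 in these 5 bins.

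The 5 bins with the largest lead of H3K9me2 were of 2 kinds by local background. On chromosome 7 from 22000001 to 23000000 there were 1.69 kb of H3K27me3 and 24.2 kb of H3K9me2, and 100% of this H3K9me2 lay in regions of high background. The bins on chromosome 8 from 10000001 to 11000000 (12.8 kb of H3K27me3, 15.01 kb of H3K9me2) and on chromosome 2 from 1 to 1000000 (4.87 and 13.03 kb) had 100% and 94.65% of their H3K9me2 there. Neighbouring bins of chromosome 5 did not. From 14000001 to 15000000 there were 2.26 kb of H3K27me3 and 19.6 kb of H3K9me2, and from 13000001 to 14000000 no H3K27me3 and 13.7 kb of H3K9me2, with 1.08% and 3.77% in high background. Both replicates called H3K9me2 in all 5 bins. At a −log10 q of at least 10 the chromosome 5 bin ending at 15 Mb turned to a scaled difference of 0.43, against −46.9 with all peaks, and its neighbour ending at 14 Mb came to 0, against −33.0. Without peaks of high background the bin on chromosome 8 turned to H3K27me3, with a scaled difference of 1.96, against −34.1 with them. In the same setting the chromosome 7 bin came to 0, against −58.2, and the chromosome 2 bin to −1.96, against −30.6.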

How the data were processed

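Immunoprecipitated libraries of 3 marks were analysed, with groups and replicate numbers from the sample titles. Leaf tissue was fixed in 1% formaldehyde for 10 min and sequenced in pairs of 150 bp, per the labels' protocols. The submitters' processing notes name MACS2 2.2.7.1, Trimmomatic 0.38, deepTools 3.3.0 and BWA 0.7.17, with no settings. The deposited lists, 1 per library and called against an input per the list names, give for each peak a fold enrichment (a linear ratio over local background), a p-value and a q-value as −log10, and a score. The inputs themselves were not analysed here.

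Total reads per library, and thus depth, are unknown here. Fragments over each summit (n) and local background were recovered from fold, read as (n + 1) over (background + 1), and the Poisson p. The result was within 0.01 of a whole number for 100% of peaks of each list. Touching peaks were merged, and regions and distances follow the text, with a gap of 0 for regions that meet. No row recurred between replicates of a mark (0 identical rows).

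Only library values were tested, by exact two-sided permutation over 4 libraries. Distances, bins and chromosomes are described with no test. Named are, for each class, the 5 leading regions or bins, the longest runs, and the 3 chromosomes at each end of the distal difference. Members, tests and rules were chosen with earlier results of these data known. Alternatives were stricter q limits, joined peaks, regions of at least 300 bp, bases of either replicate, a limit on local background, other bins, ratios and distal widths, a replicate block, and each replicate left out in turn. Code was tested on simulated intervals. Python 3.11.15, numpy 2.4.6, scipy 1.17.1 and matplotlib 3.10.9 were used. Genes were not assigned, as the gene table at hand is of another build.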

Additional observations from a re-analysis of the deposited data

Results flagged for a closer look

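Sequences outside the 12 chromosomes, which no comparison above uses, held peaks of both marks, more than the 3 counts that a count of 0 allows. They made up 2.34% and 0.654% of the H3K27me3 lists in replicates 1 and 2, and 4.10% and 5.08% of the H3K9me2 lists. A single such sequence held 540 and 79 peaks of H3K27me3 and 561 and 547 of H3K9me2. The H3K27me3 replicates thus differed by more than the H3K9me2 replicates, and the mean difference of H3K27me3 minus H3K9me2 was −3.09 points (exact two-sided permutation p = 0.33, the smallest possible).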

How the results depend on the processing

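The comparisons of libraries kept their direction under each alternative run for them, and most values from shared regions moved. Of 121 recomputed values that answer a comparison, 50 were counted as kept, 68 moved and 3 reversed. Kept means the same direction for library comparisons, within 1.5 times for shares of bins, and within the SD between single-library pairs for the rest. For single regions, bins and chromosomes 170 were kept, 285 moved and 19 reversed of 474. The moved values include unchanged ones. For the 5 longest intervals of both marks the SD was 0, so their lengths were counted as moved even where they stayed the same. The causes were not tested. The limits are 2 libraries a mark, unknown depth, weak H3K9me2 peaks, and local background high under 33.2% of H3K9me2 regions. The H3K9me2 replicates also shared little, with regions of 1.27 Mb against 6.42 and 5.03 Mb in the single lists. For H3K27me3 the regions held 18.5 Mb against 25.1 and 22.0 Mb. Across regions, log fold of the replicates correlated at 0.319 for H3K9me2 and 0.737 for H3K27me3.

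At a −log10 q of at least 5, the median distance was 1421 kb from H3K27me3 and 170.04 kb from H3K9me2. The difference from regular positions within 10 kb was −0.381 points for H3K27me3 and −4.01 points for H3K9me2. Of the H3K9me2 regions 1.11% met H3K27me3, H3K27me3 led 57.6% and H3K9me2 19.2% of bins, and the distal difference was 17.3 points. At a −log10 q of at least 10, 0.0365% of H3K27me3 and 2.86% of H3K9me2 regions met, and the medians were 9690 and 129.8 kb. The differences within 10 kb turned to 0.00635 points for H3K27me3 and 0.0492 points for H3K9me2. H3K27me3 led 66.6% and H3K9me2 4.42% of bins, and the distal difference was 13.3 points.

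With peaks within 1 kb joined, 0.163% of H3K27me3 regions met H3K9me2 and the distal difference was 16.8 points. With regions of at least 300 bp, the median from H3K27me3 was 1360 kb, the differences within 10 kb were −0.393 and −3.59 points for H3K27me3 and H3K9me2, H3K27me3 led 54.4% and H3K9me2 20.01% of bins, and the distal difference was 14.6 points. With bases of either replicate, 1.11% of H3K27me3 and 1.60% of H3K9me2 regions met, the medians were 78.6 and 107 kb, and the differences within 10 kb were −6.00 and −2.37 points. H3K27me3 then led 23.8% and H3K9me2 50.8% of bins, with a distal difference of 29.9 points. With the limit on local background, 0.0278% of H3K27me3 and 0.297% of H3K9me2 regions met, and the medians were 742 and 179 kb. The difference within 10 kb was −5.75 points for H3K9me2 and the distal difference 22.98 points. That limit combined with leaving out H3K27me3 replicate 1 or 2, chosen after seeing the data, gave −3.90 and −3.73 points for H3K9me2.

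Leaving out 1 replicate at a time gave 0.165% to 0.359% of H3K27me3 and 0.277% to 3.304% of H3K9me2 regions meeting. Medians ran from 113 to 573 kb for H3K27me3 and from 100.4 to 181 kb for H3K9me2. Differences within 10 kb ran from −5.23 to −0.340 points for H3K27me3 and from −5.02 to 0.731 points for H3K9me2. The reversed value is that without H3K27me3 replicate 2, against −0.410 points without replicate 1. H3K27me3 led 25.02% to 46.97% of bins and H3K9me2 led 32.1% to 51.4%. The bins turned to more H3K9me2 without either H3K9me2 replicate, where H3K27me3 led 26.0% and 25.02% and H3K9me2 49.8% and 51.4%. The distal difference ran from 20.5 to 29.9 points. Bins of 5 Mb turned the order, with 27.6% led by H3K27me3 and 41.4% by H3K9me2. Bins of 0.5 Mb gave 44.8% and 24.5%, and raw bases gave H3K27me3 68.02% and H3K9me2 14.7%. Distal widths of 10% and 25% at each end gave 15.3 and 23.1 points.

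Single chromosomes reversed as follows in the distal difference of H3K27me3 minus H3K9me2. Chromosome 5 gave 4.95, 15.8, 17.3 and 11.3 points at q limits 5 and 10, with either replicate and with 25% at each end, and 14.1 and 16.4 points without H3K9me2 replicate 1 or 2, in a range of −0.642 to 16.4 points over the replicates left out. Chromosome 8 gave −11.2 and −27.9 points at q limits 5 and 10, −7.23 points from 300 bp and −8.10 points with 10% at each end. Chromosome 10 gave −3.00 points with joined peaks, −3.29 points from 300 bp and −6.19 points with 10% at each end. Chromosome 7 gave −0.129 and −19.5 points at q limits 5 and 10, and chromosomes 4 and 12 gave −0.854 and −27.9 points at 10. The bin of chromosome 5 ending at 15 Mb gave 0.432 at q limit 10, and that of chromosome 8 ending at 11 Mb gave 1.96 with the limit on local background.

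With the replicate number as a replicate block the differences were again 28.5 points (distal) and 34.6 points (near H3K4me3). A block cannot change these means, so their being counted as kept says nothing. Exact two-sided sign flips gave p = 0.5, the smallest that 2 pairs allow. Same-numbered libraries share only a number: their deviations over bins had a correlation of 0.0233.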
